A study of Mus musculus with 4 samples.

Results

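Macrophage identity and efferocytosis were followed through 9 genes, taken by name from the 28074 gene symbols of the expression table. Aif1, Emr1 (now Adgre1), Emr4 (now Adgre4) and Cd14 mark macrophages and monocytes, Mertk, Axl and Timd4 encode receptors for dying cells, Gas6 encodes a ligand of Mertk and Axl, and Vsig4 encodes a complement receptor. The genes were selected on the R848 and control FPKM values of these same 4 samples, so their differences between treatments are given as a description and not as a test. The samples were spleen cells of 2 leukaemic mice, numbered 4050 and 4182. Both carried Dnmt3a fl/fl, Flt3 ITD/ITD and Mx1Cre, a Cre recombinase driven by an interferon-inducible promoter, and the labels also write the Dnmt3a genotype as +/-. After thawing and 24 hours of recovery, cells of each mouse were cultured for 3 days with SCF, IL6 and IL3 and either vehicle (control, n = 2) or R848 at 10 µg/ml (n = 2). R848, also called resiquimod, is a small molecule known to activate TLR7, an endosomal sensor of RNA. Each library was therefore 1 culture of 1 mouse, and every group shared the mutations and the cytokines.

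Macrophages clear dying cells by efferocytosis. Bridging proteins such as Gas6 and protein S bind phosphatidylserine on the corpse and engage the receptor tyrosine kinases Tyro3, Axl and Mertk (the TAM receptors), while Tim-4, the product of Timd4, binds phosphatidylserine directly. In the spleen, Mertk and Timd4 are known from resident macrophages, and the adhesion receptor F4/80, the product of Emr1, is the classical surface marker of mouse macrophages.

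The values are named FPKM in the deposited table, that is read densities scaled by transcript length and library, and were taken as log2(FPKM + 1). Linear values summed to between 950530 and 962001 per sample, and such a nearly constant total is a property of TPM rather than of FPKM, so the unit is uncertain and the name in the table is kept. The read depth behind the values is unknown. Genes expected of leukaemic myeloid cells were present in the 4 samples, with Mpo at 1052 to 1533 FPKM, Itgam at 197 to 348 and Kit at 6.67 to 15.4 (lowest to highest sample). Ptprc, which encodes the leukocyte antigen CD45, was at only 1.27 to 2.69 FPKM. Which transcripts of a gene entered its value is not given in the sources used here, and whether low values, such as those of Ptprc, Gas6, Vsig4 and Timd4, leave out part of a gene's transcripts was not tested. Cd34, a marker of stem and progenitor cells, was at 26.6 and 39.9 FPKM in the controls of mice 4050 and 4182 and at 12.1 and 17.4 with R848 (log2 difference -1.11, limma adjusted p = 0.103, or 0.00187 with the mouse as a block, a fit that sets each R848 sample against the control of the same animal). With the block it was the 1 gene called of 7 leukaemic myeloid markers, beside 3.40% of the 12612 genes tested called higher and 1.90% lower. Without the block 0 of the 7 were called, beside 1.47% higher and 0.381% lower. Before adjustment 1 of the 7 had a limma p below 0.05 without the block, beside 1454 of all genes tested. Of the general macrophage markers, Csf1r was at 52.5 to 110.8 FPKM, Cd68 at 45.6 to 68.7 and Lyz2 at 3993 to 6174. Clec4f, a marker of liver macrophages, was at 7.34 to 41.8 FPKM in these spleen cells.

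Promoters of 7 of the 9 genes were taken from the RefSeq promoter table (GRCm38.p6, 250 bases before to 50 after the start site). Emr1 had no entry there, and Cd14 was not looked up. Shown are the promoters of Aif1 and Emr4, which were higher with R848 in both mice, and of the receptors Axl and Mertk, which were not. Each is printed 5′ to 3′ on the strand of the gene. Capitals mark matches on either strand to GAGGAA, the core of sites for ETS factors such as PU.1, and to GAAANNGAA, the core of the interferon-stimulated response element. TTCNNNGAA (interferon gamma activated site) and TGANTCA (AP-1 site) were also searched, and these letters were in none of the 7 promoters.
Aif1, chr17:35176003-35176302, minus strand: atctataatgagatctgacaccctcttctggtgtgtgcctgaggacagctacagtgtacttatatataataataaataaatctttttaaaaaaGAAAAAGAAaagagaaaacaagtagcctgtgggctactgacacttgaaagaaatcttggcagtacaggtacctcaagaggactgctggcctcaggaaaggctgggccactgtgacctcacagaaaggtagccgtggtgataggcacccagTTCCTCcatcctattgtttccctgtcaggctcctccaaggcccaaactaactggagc
Emr4, chr17:55749734-55750033, plus strand: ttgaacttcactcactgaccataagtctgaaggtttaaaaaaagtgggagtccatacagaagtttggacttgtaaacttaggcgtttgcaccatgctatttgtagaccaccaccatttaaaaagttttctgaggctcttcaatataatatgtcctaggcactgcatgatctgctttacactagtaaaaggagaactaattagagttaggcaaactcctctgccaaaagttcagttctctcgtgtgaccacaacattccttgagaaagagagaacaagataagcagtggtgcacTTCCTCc
Axl, chr7:25788684-25788983, minus strand: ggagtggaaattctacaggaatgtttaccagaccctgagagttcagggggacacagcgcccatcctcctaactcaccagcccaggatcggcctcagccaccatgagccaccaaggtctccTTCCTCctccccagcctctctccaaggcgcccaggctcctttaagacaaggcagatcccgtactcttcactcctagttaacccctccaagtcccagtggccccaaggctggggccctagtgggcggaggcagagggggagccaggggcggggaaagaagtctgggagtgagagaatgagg
Mertk, chr2:128698665-128698964, plus strand: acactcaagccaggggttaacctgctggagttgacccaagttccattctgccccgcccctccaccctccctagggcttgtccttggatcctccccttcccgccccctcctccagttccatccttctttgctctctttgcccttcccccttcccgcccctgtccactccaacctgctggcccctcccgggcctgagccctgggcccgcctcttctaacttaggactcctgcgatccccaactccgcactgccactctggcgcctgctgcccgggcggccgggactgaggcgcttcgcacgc
GAGGAA was in the promoters of Aif1, Emr4, Axl and Vsig4, that is 4 of 7, and in 28.3% of all 32851 promoters. GAAANNGAA was in the promoters of Aif1, from position -157 to -149 with the start site counted as 0, and of Timd4, and in 8.56% of all promoters. The other motifs were in 8.30% (TTCNNNGAA) and 7.81% (TGANTCA) of all promoters, and no 2 matches overlapped in the members. The promoters also differed in base composition, with 45% G and C in Aif1 and 40.3% in Emr4 against 60.3% in Axl and 66% in Mertk. Of the genes under 1 FPKM in each sample, Vsig4 had 44.3%, Timd4 50.7% and Gas6 58.3%. Whether base composition went with the direction of the genes was not tested. The median of all promoters was 52.7%. A match describes the letters and does not show that a factor binds there.

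The 4 identity genes were higher with R848 than in control in both mice. Aif1 encodes Iba1, an actin-bundling calcium-binding protein of macrophages and microglia, and lies on chromosome 17 at 35170991 to 35176068 (GENCODE M21, GRCm38). It was at 4.85 FPKM in the control of mouse 4050 and 3.27 in that of mouse 4182, and at 69.9 and 109 FPKM with R848. Both controls were low and both R848 samples high, with a wide gap between the groups. The controls averaged 4.06 ± 1.11 FPKM and the R848 samples 89.4 ± 27.7 (SD, n = 2 each). Within a mouse the ratio of R848 to control was 14.4 in mouse 4050 and 33.3 in mouse 4182. The difference of log2(FPKM + 1) was 4.14 (SE 0.26), at rank 19 from the top among the 12612 genes tested.

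Emr1 (chromosome 17, 57358691 to 57483527) was already abundant without R848, at 52.6 and 61.5 FPKM in the controls of mice 4050 and 4182. It was at 156 and 154 FPKM with R848. The treated samples of both mice thus reached nearly the same level, 155 ± 1.11 FPKM against 57.1 ± 6.26 in control (SD, n = 2 each). The ratio of R848 to control was 2.96 in mouse 4050 and 2.51 in mouse 4182, and the log2 difference was 1.43 (SE 0.16). Although Aif1 changed by far more, Emr1 remained the more abundant of the pair on the FPKM scale. The Aif1 level was 0.0921 and 0.0532 of the Emr1 level in the controls and 0.448 and 0.707 of it with R848, for mice 4050 and 4182.

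Emr4 encodes an adhesion receptor of the same family as F4/80, and its gene lies on chromosome 17 at 55749984 to 55853662. It was close to the bottom of the scale in control, at 0.634 FPKM in mouse 4050 and 0.0343 in mouse 4182. With R848 it was at 4.16 and 2.13 FPKM. The groups did not overlap, and the gene passed the filter of a mean of 1 FPKM through the R848 samples. The ratio of R848 to control was 6.57 in mouse 4050 and 62.1 in mouse 4182. On the log2(FPKM + 1) scale, which compresses such low levels, the difference was 1.63 (SE 0.35), with 1.66 and 1.60 in the mice. With a pseudocount of 0.1 in place of 1 it was 3.3. Emr4 stayed far below Emr1, at 0.0267 and 0.0138 of its FPKM with R848. In GENCODE M21 the span of Emr4, introns included, overlaps 2 pseudogenes on the opposite strand. Whether the authors' processing used strand is not given in the sources used here, and whether reads were shared was not tested.

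Cd14, which encodes the co-receptor that hands bacterial lipopolysaccharide to TLR4, differed between the mice as well as between the treatments. It was at 46.1 FPKM in the control of mouse 4050 and at 23.3 in that of mouse 4182, and at 76.5 and 48.1 with R848. Each mouse was higher with R848, by a ratio of 1.66 and 2.06, but the R848 sample of mouse 4182 lay just above the control of mouse 4050. Mouse 4050 had 1.98 times the level of mouse 4182 in control and 1.59 times with R848. The log2 difference was 0.87 with an SE of 0.34, or 0.17 with the mouse as a block. It ranged from 0.39 without the control of mouse 4182 to 1.34 without that of mouse 4050.

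**Figure D1:**
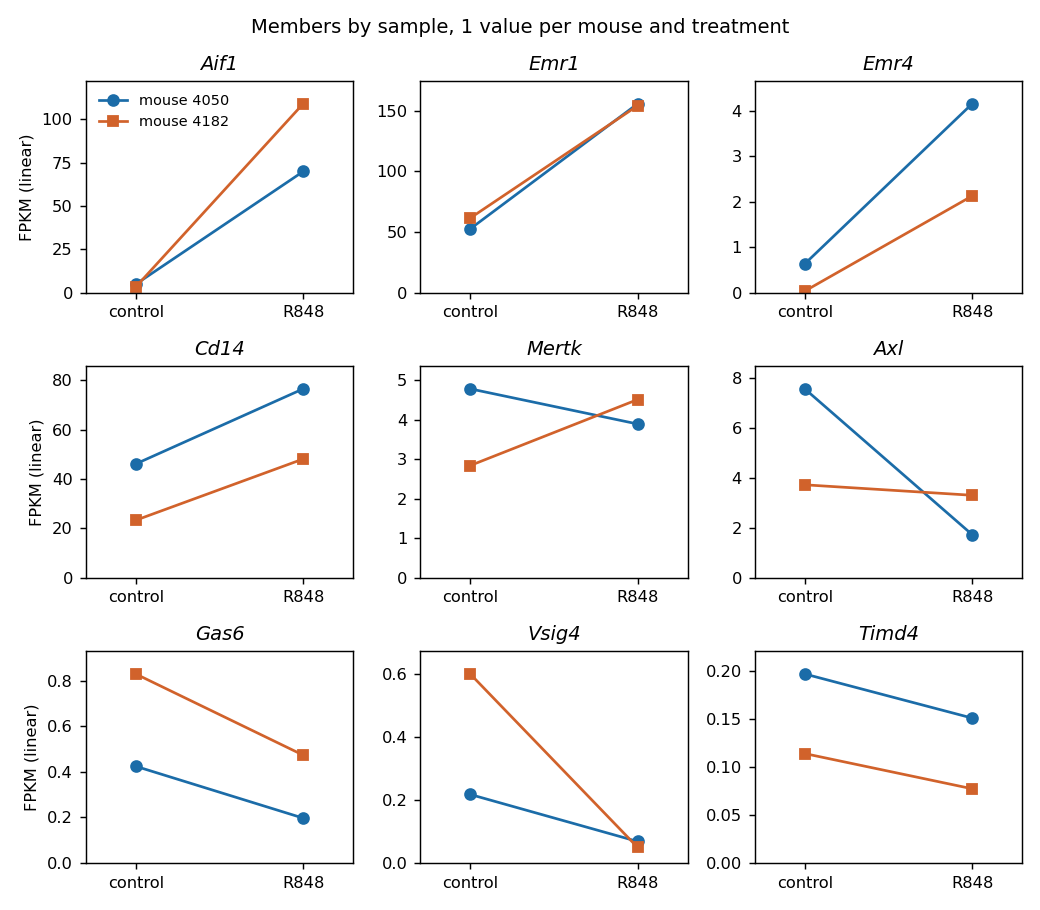
FPKM (linear vertical axes, each starting at 0 and scaled to its gene) of the 9 genes in control and R848 samples; each line joins the 2 samples of a mouse (circles 4050, squares 4182). Aif1, Emr1, Emr4 and Cd14 go up in both mice, the lines of Mertk cross, and Gas6, Vsig4 and Timd4 stay below 1 FPKM in the 4 samples.

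The efferocytosis genes were low and did not follow the identity genes. Mertk, the TAM receptor best known for the uptake of apoptotic cells (chromosome 2, 128698956 to 128802894), was at 4.78 and 2.84 FPKM in the controls of mice 4050 and 4182 and at 3.89 and 4.51 with R848. It was lower with R848 in mouse 4050 and higher in mouse 4182, and the groups overlapped. The mean was 3.81 ± 1.37 FPKM over the controls and 4.20 ± 0.435 over the R848 samples (SD, n = 2 each). The log2 difference was 0.14 (SE 0.26). Without the control of mouse 4182 that difference was -0.15. In GENCODE M21 the span of Mertk, introns included, overlaps an antisense gene and, on the same strand, a small nucleolar RNA gene. Strand use is unknown, and whether reads were shared was not tested.

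Axl, the TAM receptor that depends most on Gas6 (chromosome 7, 25757273 to 25788705), was at 7.58 and 3.73 FPKM in the controls of mice 4050 and 4182. With R848 it was at 1.73 and 3.31 FPKM. The R848 samples lay below both controls, but most of the gap came from mouse 4050, where the ratio of R848 to control was 0.228 against 0.888 in mouse 4182. The log2 difference was -0.89 (SE 0.35), with -1.65 in mouse 4050 and -0.13 in mouse 4182. It ranged from -0.46 without the control of mouse 4050 to -1.32 without that of mouse 4182. In control, mouse 4050 had 2.03 times the Axl level of mouse 4182, and with R848 0.522 times.

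The order of Axl and Mertk on the FPKM scale was reversed between the treatments. Axl was at 1.59 and 1.32 times the Mertk level in the controls of mice 4050 and 4182, and at 0.444 and 0.735 times with R848. Tyro3, the third TAM receptor, was at 0.488 to 0.797 FPKM and below both in each sample. Gas6, their shared ligand, was at 0.425 and 0.831 FPKM in control and 0.197 and 0.474 with R848. The groups overlapped, although each mouse was lower with R848. The span of Gas6, introns included, overlaps that of Tmem255b, a coding gene on the opposite strand, and whether reads were shared was not tested. Pros1, which encodes protein S, the other ligand, was above Gas6 in each sample, at 2.90 and 1.27 FPKM in control and 1.67 and 2.81 with R848. Like Mertk, Pros1 was lower with R848 in mouse 4050 and higher in mouse 4182 (limma adjusted p = 0.952).

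**Figure D2:**
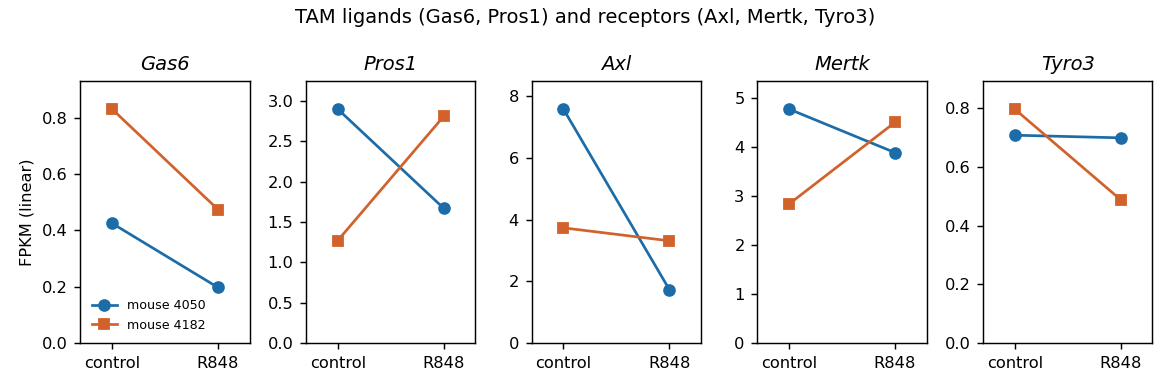
FPKM (linear, each axis starting at 0 and scaled to its gene) of the TAM ligands Gas6 and Pros1 and receptors Axl, Mertk and Tyro3, with lines joining the samples of a mouse (circles 4050, squares 4182). Axl drops steeply in mouse 4050 from 7.58 to 1.73 FPKM, while Mertk and Pros1 move in opposite directions in the mice.

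Vsig4 and Timd4, both markers of resident tissue macrophages, were near the bottom of the scale. Vsig4, which encodes a receptor for complement C3 fragments, was at 0.217 and 0.599 FPKM in the controls of mice 4050 and 4182 and at 0.0679 and 0.0489 with R848. The R848 samples were the lower ones in each mouse, but with the depth unknown the counting error at such levels cannot be given. Timd4 was at 0.197 and 0.114 FPKM in control and 0.151 and 0.0773 with R848, and the groups overlapped. Gas6, Vsig4 and Timd4 had means under 1 FPKM and were not tested. By mean FPKM in control the 9 genes ranked Emr1, Cd14, Axl, Aif1, Mertk, Gas6, Vsig4, Emr4 and Timd4. With R848 the order was Emr1, Aif1, Cd14, Mertk, Emr4, Axl, Gas6, Timd4 and Vsig4. The sample ranges of Axl, Aif1 and Mertk overlapped in control, as did those of Gas6, Vsig4 and Emr4, and those of Emr4 and Timd4. With R848 the range of Emr4 overlapped those of Mertk and Axl, and the range of Aif1 that of Cd14, whose means were 89.4 and 62.3 FPKM.

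**Figure D3:**
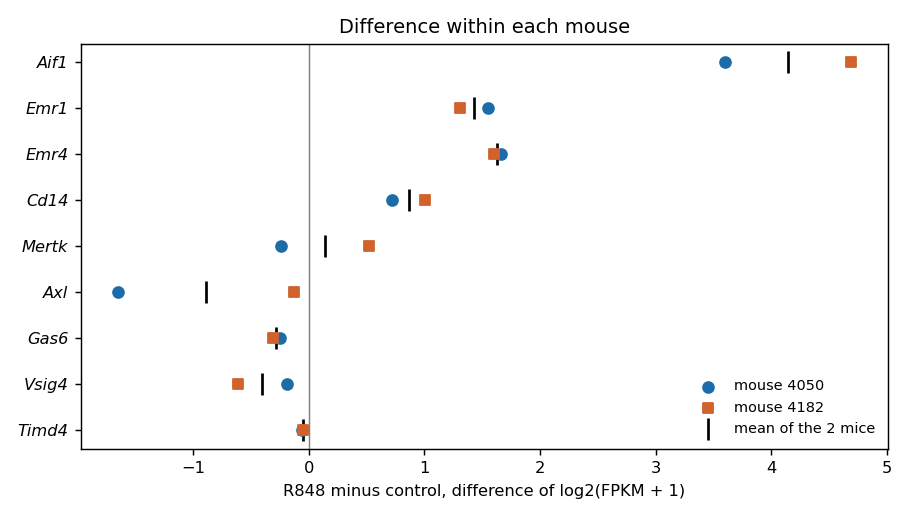
Difference of log2(FPKM + 1), R848 minus control (horizontal axis), within mouse 4050 (circles) and mouse 4182 (squares) for the 9 genes, with a vertical tick at the mean. Aif1 lies at 3.60 and 4.69, the symbols of Mertk fall on opposite sides of 0, and those of Axl are far apart at -1.65 and -0.13.

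Of the 9 genes, 6 passed the filter on low values and entered the limma fit over 12612 genes. There, 2 of the 6 were called higher at a Benjamini-Hochberg adjusted p under 0.05, Aif1 and Emr1, beside 1.47% of all genes tested. None was called lower, beside 0.381%. At an unadjusted p under 0.05 by limma 4 were higher and 1 lower, beside 656 and 798 of the 12612 genes. With the mouse as a block 4 were called higher, Aif1, Emr1, Emr4 and Cd14, beside 3.40% of all genes, and 0 lower, beside 1.90%. The R848 samples lay above the controls without overlap for 4 of the 6, beside 13.5% of genes, and below them for Axl, beside 28.8%. These counts restate the contrast on which the genes were chosen, and nothing is read from them. Emr1 lost its call without either R848 sample in turn. Its log2 difference was 1.42 without that of mouse 4050 and 1.44 without that of mouse 4182. The log2 differences of Aif1, Emr1, Emr4 and Cd14 stayed above 0, and that of Axl below 0, under both rescalings tried.

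Among other genes tested, those with the most similar pattern over the 4 samples were found by the Euclidean distance between log2 values centred on each gene's mean. For Aif1 they were Mzb1, a plasma and B cell gene, and Vnn3, at distances of 0.343 and 0.585. For Emr1 they were Ddx60, an interferon-induced helicase, and Gimap3, at 0.146 and 0.157. Emr4 was closest to Abca1, the cholesterol exporter, and to Cd302, at 0.152 and 0.244. The nearest genes to Cd14 were Fcrls and Nrp2 (0.0911 and 0.118), those to Mertk were Arl6 and Xkr8 (0.0449 and 0.0497), and those to Axl were Mgl2, a macrophage lectin, and Nanp (0.31 and 0.315). With 4 samples, many genes share a pattern by number alone, and no relation is drawn from these distances.

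The wider efferocytosis pathway was examined through 78 other genes, of which 70 were tested. By limma 4 were higher and 2 lower with R848, beside 1.47% and 0.381% of all genes tested. Blocking on the mouse gave 6 and 6, beside 3.40% and 1.90%. The median log2 difference of the 70 was -0.05, beside -0.08 for all genes tested. Among 8 bridging molecules 2 rose and 1 fell. C1qc and C1qb, chains of complement C1q, rose from 33.8 and 29.0 FPKM to 105 and 149 (log2 difference 1.97, limma adjusted p = 0.00621) and from 53.1 and 38.5 to 135 and 174 (1.74, limma adjusted p = 0.0111). C1qa, the third chain, was higher in each mouse but missed the threshold (log2 difference 1.37, limma adjusted p = 0.0647, or 0.00317 with the block). It also passed without the block under a filter of 5 FPKM and without the control of mouse 4050. Mfge8, a phosphatidylserine-binding protein that links corpses to integrins, fell from 9.92 and 13.0 FPKM to 4.34 and 3.91 (log2 difference -1.27, limma adjusted p = 0.034).

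Among 16 tested receptors 1 rose and 1 fell. Scarf1, a scavenger receptor that binds C1q on dying cells, rose from 4.11 and 3.94 FPKM to 12.3 and 15.0 (log2 difference 1.53, limma adjusted p = 0.0142). Trem2, a lipid and corpse receptor of macrophages, fell from 40.4 and 29.5 FPKM to 10.7 and 11.5 (log2 difference -1.55, limma adjusted p = 0.0144). With the block 2 rose and 4 fell, the additional falls being Itgb3 and Itgb5, integrin chains that pair with Itgav to bind Mfge8, and Cd300lb, with limma adjusted p of 0.0277, 0.0241 and 0.00802. The additional rise with the block was Stab1 (limma adjusted p = 0.0177), a scavenger receptor that also binds phosphatidylserine.

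The machinery inside the cell was examined through 2 lists. Of 17 tested genes of engulfment signalling 0 were called by limma with or without the block and 0 had an unadjusted p under 0.05. Over all 12612 genes tested, 1454 had an unadjusted p under 0.05 by limma without the block. The smallest p-values belonged to Dock1 and Elmo1, which activate Rac together, with log2 differences of -0.57 and -0.42. Of 29 genes of phagosome and corpse processing 1 rose, Abca1, from 3.91 and 2.40 FPKM to 16.9 and 9.50 (log2 difference 1.75, limma adjusted p = 0.0409). Abcg1, the partner exporter of cholesterol, was lower in each mouse (log2 difference -0.94, limma adjusted p = 0.0984, or 0.015 with the block). It passed with the block and not when the block was joined with either rescaling. The median log2 differences of these lists were -0.08 and 0.01. Fitted without the block, C1qc alone of the 6 calls passed after quantile normalization, and C1qb, C1qc, Scarf1 and Trem2 after median log ratio scaling, while all 6 passed with the block under either rescaling. Each of the 6 lost its call without the R848 sample of mouse 4182, and each but C1qc without that of mouse 4050. The log2 difference of C1qc was 1.72 and 2.22 in these fits, in that order. Over all genes tested fewer were called in these fits as well. Mfge8 and Abca1 also lost their calls without the control of mouse 4182.

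**Figure D4:**
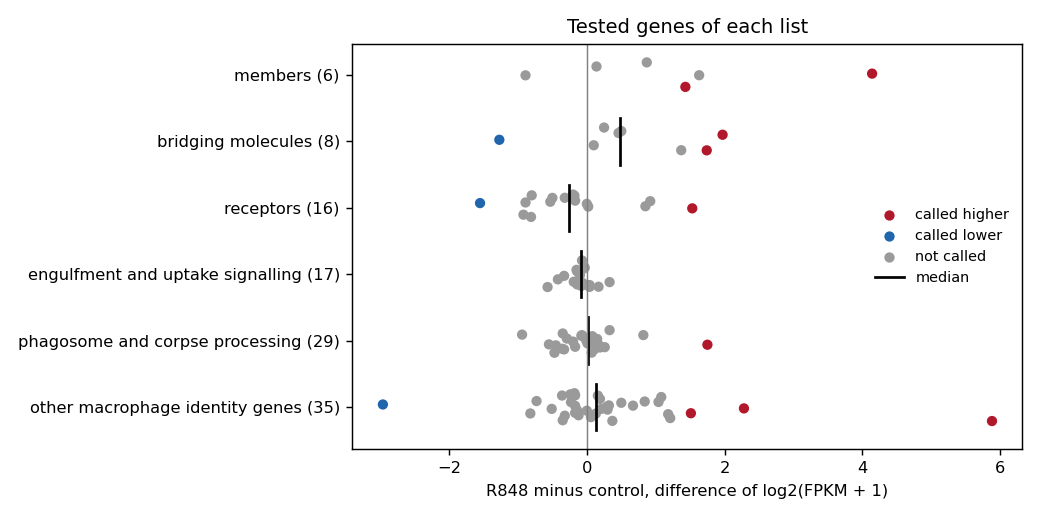
Difference of log2(FPKM + 1), R848 minus control (horizontal axis), for each tested gene of 6 lists, with the number tested in brackets and a vertical bar at the median of each list other than the members. Red and blue points were called higher or lower by limma without the block; vertical scatter within a list has no meaning. Engulfment genes crowd around 0, and Aif1 stands alone at 4.14 among the members.

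Other macrophage identity genes went in both directions. Of 35 tested among 40 listed, 3 rose and 1 fell by limma, beside 1.47% and 0.381% of all genes tested. In the blocked fit 9 rose and 2 fell, beside 3.40% and 1.90%. The median log2 difference of the 35 was 0.13. Marco, a scavenger receptor, rose from 1.32 and 0.125 FPKM to 103 and 86.5 (limma adjusted p = 4.8e-04), and Fcgr1, the high-affinity antibody receptor, from 9.16 and 5.42 to 34.8 and 42.1 (limma adjusted p = 0.00709). Marco and Siglec1, with control means of 0.724 and 0.853 FPKM, passed the filter through the R848 samples, so their calls are given as a description. Maf, a macrophage transcription factor, rose from 2.16 and 3.08 FPKM to 8.33 and 10.3 (limma adjusted p = 0.0231). Mrc1, the mannose receptor, fell from 67.7 and 33.3 FPKM to 8.50 and 3.11 (limma adjusted p = 0.0228). With the block Csf1r, Siglec1, Spic, Sepp1, Clec4f and Ly6c2 were also called higher and Ccr2 lower. Of these, Ly6c2 lost its call when the block was joined with either rescaling, and Spic and Clec4f when it was joined with quantile normalization. Without the block Siglec1 was called with a variance prior without trend, and Clec4f and Sepp1 without the control of mouse 4182. Maf and Mrc1 lost their calls under either rescaling without the block (limma adjusted p from 0.0688 to 0.086) and kept them with it. Without the R848 sample of mouse 4050 or of mouse 4182, Fcgr1, Maf and Mrc1 lost their calls. Over all genes tested fewer were called in these fits as well.

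Markers of other cells moved with the treatment too. In these bulk samples a change in the number of cells of a type and a change in RNA per cell cannot be told apart. Over all genes tested 1.47% were called higher and 0.381% lower, or 3.40% and 1.90% with the block. At an unadjusted p under 0.05 by limma without the block, 656 of the 12612 genes were higher and 798 lower. Of 7 B cell markers 2 of 4 tested rose, Ms4a1 and Cd79a, and the summed level of the list was 16.0 to 18.6 FPKM in control and 39.2 to 42.3 with R848. Cd79b was called higher as well with the block (limma adjusted p = 0.0138, or 0.0961 without it). Fcer2a, the other tested B cell marker, had a log2 difference of -0.13 and was not called. Of the plasma cell markers 2 of 7 tested rose. Igj, which encodes the joining chain of secreted antibodies, rose from 0.405 and 0.464 FPKM to 42.2 and 34.1 (log2 difference 4.76, limma adjusted p = 1.8e-04). Mzb1 rose from 0.365 and 0.102 FPKM to 18.1 and 20.8 (4.05, limma adjusted p = 4.7e-04). Irf4 of the same list went the other way, from 9.73 and 8.90 FPKM to 6.32 and 4.39 (-0.71, limma adjusted p = 0.239). At an unadjusted p under 0.05 by limma, 5 plasma cell markers were higher and 1, Irf4, was lower. The summed level of the plasma cell list was 542 to 694 FPKM in control and 629.6 to 695 with R848, of which Xbp1, a gene not limited to plasma cells, made up 515 to 667 and 543 to 599, and Tnfrsf17 was at 0 in both controls. Of the T cell markers 2 of 6 tested rose (summed level 7.98 to 8.65 and 16.4 to 20.4), Cd3g and Trbc1, and with the block also Cd2 (limma adjusted p = 0.0166, or 0.0825 without it). Cd3d, Lck and Themis, the other tested genes of this list, had log2 differences of 0.01, 0.39 and 0.5 and were not called. Cd3d went in opposite directions in the mice, and Cd3e, not tested, was at 0.219 FPKM or less in each sample. Cd79a, Ms4a1, Igj, Mzb1, Cd3g, Trbc1 and Cd2 had control means under 1 FPKM and, like Emr4, passed the filter through the R848 samples. Their calls are therefore given as a description. Of the erythroid and megakaryocyte markers 1 of 3 tested rose, Pf4, with summed levels of 82.0 to 94.4 and 200.1 to 382 FPKM. Pf4 alone made up 56.1 to 68.5 and 183 to 354 FPKM of these sums. Itga2b and Gp9, the other tested genes of this list, had log2 differences of -0.12 and -0.4 and were not called. The NK cell (2 tested), dendritic cell (3), neutrophil (9), eosinophil, mast cell and basophil (9) and stromal and endothelial (1) lists had 0 calls by limma. At an unadjusted p under 0.05, 1 NK cell marker and 3 of the eosinophil, mast cell and basophil list were higher, 1 neutrophil marker was lower, and the dendritic and stromal lists had 0. With the block 3 eosinophil, mast cell and basophil markers were higher. Summed levels of these lists in control and with R848 were 128.5 to 203 and 198 to 205 FPKM (NK cell), 10.0 to 15.8 and 8.51 to 14.6 (dendritic cell), 64620.0 to 81189 and 50493 to 91998 (neutrophil), 1667 to 1773 and 1567 to 2822 (eosinophil, mast cell and basophil) and 116 to 123 and 112 to 138.5 (stromal and endothelial). Of these sums, Nkg7 alone made up 126 to 201 and 193 to 197 FPKM in the NK cell list and Pecam1 115 to 122 and 112 to 137 in the stromal and endothelial list. The other members of these lists were at 5.44 FPKM or less in each sample, so the sums describe mainly these single genes. In the neutrophil list S100a8 made up 29456 to 37968 and 25657 to 45355 FPKM, and S100a9 27273 to 34984 and 19760 to 37407. Mcpt8 made up 1232 to 1329 and 1027 to 1704 FPKM of the eosinophil, mast cell and basophil sums, and Cd79b 12.8 to 14.9 and 23.0 to 29.2 of the B cell sums. Such sums too are mainly the levels of these genes. Ncr1 and Gzma of the NK cell list and Cdh5, Dcn and Lum of the stromal list were at 0 in both controls. The part of these cells in the levels of the 9 genes was not tested.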

How the data were processed

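RNA of 4 cultures, control and R848 from mice 4050 and 4182, was sequenced as paired reads of 150 nucleotides, per the labels' protocols. The protocols mention ribosome depletion as well as a stranded mRNA kit. The authors deposited log2 values that the table names log2 FPKM. Per the submitters' processing notes kallisto and mm10 were used, and the versions and the annotation are not given in the sources used here. As the lowest value was 0, the scale was taken to be log2(FPKM + 1), which was undone for linear values. The values hold no counts, so depth is unknown and no count model was used.

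Of 28192 rows, 27 named as dates and 91 repeats of a symbol (the highest mean kept) were dropped. A mean of 1 FPKM or more was required for testing, which 12612 genes met. R 4.3.3 with limma 3.58.1 compared the groups (two-sided, trended prior, Benjamini-Hochberg adjustment over these genes, threshold 0.05). The p-values lean on the spread of other genes, with 5.27 prior and 2 residual degrees of freedom in the fit without the block. The fit with the block had 1 residual degree of freedom. The fit was tested on simulated data. Per the labels, each number is 1 animal, so samples are paired by number. The deviations from the group means correlated at 0.289 across genes for each mouse, which with 2 per group is 1 value. A blocked fit with the mouse as a factor is given where it changes a call or a count by over 1.5 times.

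The 9 genes and the lists were chosen with earlier results of these data known. The wider lists are 78 other efferocytosis genes and 40 other macrophage identity genes, beside lists of markers of other cells. Named from the wider lists are up to 3 called genes in each direction with the smallest adjusted p, or the 2 smallest p where none was called. Likeness names the 2 nearest genes without predicted names. Genes called with the block and not without it, C1qa, Igj, Mzb1, Xbp1, Nkg7, Pecam1, Pros1, Tyro3, Abcg1, the expected myeloid markers and the general macrophage markers were named after their values were seen. So were the named markers of B cells, T cells, and erythroid cells and megakaryocytes. One marker gene is not reported here and is in no list count or sum. An older symbol matched 7 list genes, and 1 had no match. Coordinates are from GENCODE M21 (GRCm38, the build named mm10), promoters from RefSeq. Alternatives tried were median log ratio scaling, quantile normalization, a pseudocount of 0.1, a filter of 5 FPKM or none, the block, a prior without trend and leaving out each sample. The block with a rescaling was added after seeing the data. Python 3.11.15 with matplotlib 3.10.9 drew the figures.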

Additional observations from a re-analysis of the deposited data

Results flagged for a closer look

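Mertk moved in opposite directions in the mice. Its difference of log2(FPKM + 1), R848 minus control, was -0.24 in mouse 4050 and 0.52 in mouse 4182. With 1 sample per mouse and treatment the difference between the mice was not tested.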

How the results depend on the processing

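Without rescaling or block, limma called 185 genes higher and 48 lower, among them 2 and 0 of the 9 genes, 4 and 2 of the other efferocytosis genes and 3 and 1 of the other macrophage identity genes. Quantile normalization gave 76 and 12 over all genes, 2 and 0 for the 9 genes, 1 and 0 for the efferocytosis genes and 2 and 0 for the identity genes. Median log ratio scaling gave 93 and 16, 2 and 0, 3 and 1, and 2 and 0 in the same order. The replicate block (mouse number) gave 429 and 240, 4 and 0, 6 and 6, and 9 and 2, and all 233 calls made without it were among these. The block with median log ratio scaling gave 409 and 151, 4 and 0, 6 and 5, and 8 and 2, and the block with quantile normalization 354 and 136, 4 and 0, 6 and 5, and 6 and 2. With no filter on low values, over 21710 genes not at 0 in all samples, limma called 0 and 0 in each of these, with 1880 genes at an unadjusted p under 0.05. The cause was not tested.

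Leaving out 1 sample in turn gave 46 to 259 genes higher and 10 to 136 lower, 1 to 4 and 0 of the 9 genes, 0 to 7 and 0 to 3 of the efferocytosis genes, and 1 to 5 and 0 to 1 of the identity genes. The lowest count over all genes came without the R848 sample of mouse 4182. The Mertk difference ran from -0.15 without the control of mouse 4182 to 0.44 without that of mouse 4050. Among the 9 genes, Aif1 was called under each alternative but the missing filter (adjusted p = 0.148), and Emr1 under each but that (0.148) and without the R848 sample of mouse 4050 (0.0625) or 4182 (0.0778), by limma. Emr4 and Cd14 passed with the block, alone or with either rescaling, and without the control of mouse 4050. Depth is unknown, so the counting error of genes under 1 FPKM, such as Gas6, Vsig4 and Timd4, cannot be given.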
